A study of Homo sapiens with 30 samples.

Results

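The results below compare how gene expression changed when RNA polymerase II carried an S7A C-terminal domain (CTD) with how it changed when the CTD was wild type. They rest on 8 of the 30 libraries of the series: 4 groups of 2, namely the S7A line untreated and treated and the WT line untreated and treated. All 8 come from cells labelled A549, a human lung adenocarcinoma line, and both lines carry the same RPB1 degron, which lets dTAGV-1 remove their own RPB1. The S7A line additionally holds an inducible RPB1 in which serine 7 is changed to alanine, and the WT line an inducible wild-type RPB1. Treated cells received 2 µg/mL doxycycline for 24 h, which induces the added RPB1, and 100 nM dTAGV-1 for 12 h, which removes the endogenous one; untreated cells received neither agent. Poly(A) RNA was sequenced. The quantity compared was the S7A change with treatment minus the WT change with treatment, on the log2 scale, so that 1 means that the ratio of treated to untreated was 2-fold higher in S7A. Each line stands for 1 CTD genotype, the labels do not say whether a line is 1 clone or a pool, and nothing in the labels says that the 2 libraries of a group came from separate cultures. The p-values therefore measure the spread between libraries, which may be technical.

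POLR2A encodes RPB1, the subunit of RNA polymerase II that carries its catalytic center. The CTD of RPB1 is a long run of heptads with the consensus tyrosine, serine, proline, threonine, serine, proline, serine. The serines are phosphorylated in turn through the transcription cycle: serine 5 and serine 7 by the CDK7 kinase of TFIIH near the promoter, and serine 2 by CDK9, CDK12 and CDK13 further into the gene. Phosphorylated serine 7 is best known for its role at small nuclear RNA genes, where it helps to recruit the Integrator complex. It is also found along protein-coding genes, where its role is less well defined.

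The residue changed in S7A can be read in the reference transcript. The longest POLR2A transcript of GENCODE 29 (6751 bases; the gene lies on chromosome 17, 7484366 to 7514616, plus strand, GRCh38) holds 21 heptads that encode the full consensus, in 20 different spellings of 21 bases. The last codon of a heptad, the one for serine 7, is AGC in 17 of them, AGT in 2 and TCC in 2. A neighbouring pair of each kind is shown, since together they hold both kinds of serine codon, with the codon for serine 7 in capitals and positions counted from the first base of the transcript. Bases 5242 to 5262 are heptad a, 5263 to 5283 heptad b, 5305 to 5325 heptad c and 5326 to 5346 heptad d.
heptad a: tattcccccacttcacccTCC
heptad b: tactcccctacctctccaTCC
heptad c: tatagtcccacatcacccAGC
heptad d: tattcgccaacgtcacccAGC
The codons of the introduced RPB1, and how many of its heptads carry the change, are not known from the labels.

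Library totals of the 8 libraries were 11356689 to 15472914 counts. Of 61578 genes in the tables, 19982 passed the filter on low counts and were tested. The libraries did not hold all the markers of the label. Of 25 A549 and lung epithelial genes, 12 were under 1 CPM (counts per TMM-scaled library total) in all 8 libraries. Of these 12, 6 (SFTPA1, SFTPA2, SFTPC, SFTPD, SCGB1A1 and SCGB3A2) were under 1 CPM in the 2 untreated Mock libraries of the same series as well. The other 6 include KRT7, at 0 to 0.0791 CPM against 1854 and 2026 CPM in Mock. KRT19, CEACAM6 and FOXA2 were at 0 counts in all 8, which allows 3 counts in each, and KRT8 was at 80.4 to 126 CPM against 5507 and 5810 in Mock. NKX2-1, a lung transcription factor gene, went the other way, at 2.87 to 7.29 CPM in the 8 libraries and at 0.307 and 0 in Mock. CDKN2A, looked up after these values were seen because A549 is known to lack it, was at 97.03 to 187.5 CPM in the 8 libraries and at 0 in Mock. The cells are therefore called here by their line names, WT and S7A, which share this state. The Mock libraries enter the comparisons only through the filter on low counts, the scaling and the shared estimate of spread.

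POLR2A itself rose with treatment in both lines. It stood at 302 and 290 CPM in the untreated WT libraries and at 518 and 1020 in the treated ones. In S7A it went from 567 and 572 CPM to 1380 and 1764. The 4 treated libraries all lay above the untreated libraries of their own line, although the lower treated WT library lay below both untreated S7A libraries. The rise was 1.46 ± 0.27 in S7A (log2, SE; edgeR adjusted p = 0.000231) and 1.38 ± 0.27 in WT (edgeR adjusted p = 0.00344). The difference between these changes was 0.09 ± 0.37 (edgeR adjusted p = 0.974). The sign of this difference was not fixed: without a call in any case, it was -0.33 without treated WT replicate 1, 0.65 without treated WT replicate 2, -0.07 without treated S7A replicate 2, -0.60 with the factors of the authors and -0.05 under mitochondrial scaling. Before treatment POLR2A was already 0.94 ± 0.26 higher in S7A than in WT (edgeR adjusted p = 0.0291), and after treatment 1.03 ± 0.26 higher (edgeR adjusted p = 0.00655). Counts per gene do not separate endogenous from introduced POLR2A mRNA, and an alanine codon cannot be seen in them.

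The change with treatment was called different in the S7A and WT lines for 164 genes, which is 0.821% of the genes tested (edgeR quasi-likelihood test, adjusted p under 0.05). For 65 of them (0.325%) the S7A change was the higher one and for 99 (0.495%) the lower one. Of these, 56 of the higher and 24 of the lower differed by at least 2-fold. The median over all 19982 genes was -0.04. The 65 higher genes were genes that rose further in S7A: their median change was 2.13 in S7A and 0.53 in WT, all 65 were themselves called as risen in S7A (17.8% of all genes were) and 25 in WT (3.09% of all genes; 4.93% of genes were called either way in WT and 34.9% in S7A). The 99 lower genes were mostly genes that fell further: their median change was -1.04 in S7A and -0.25 in WT, 97 were called as fallen in S7A (17.1% of all genes) and 23 in WT (1.84%). Untreated levels differed as well. Untreated S7A lay below untreated WT in 59 of the 65 higher genes (median -0.55), where 9306 of all 19982 genes did. Of the 65, 15 were called lower there, against 3.98% of all genes, and 0 higher. Of the 99 lower genes 66 lay above 0 in untreated S7A minus untreated WT (median 0.14), where 10279 of all genes did. Of the 99, 18 were called higher there (3.86% of all genes) and 7 lower. These counts share the libraries of the comparison itself and describe its members only. No gene was called in both lines in opposite directions.

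**Figure D1:**
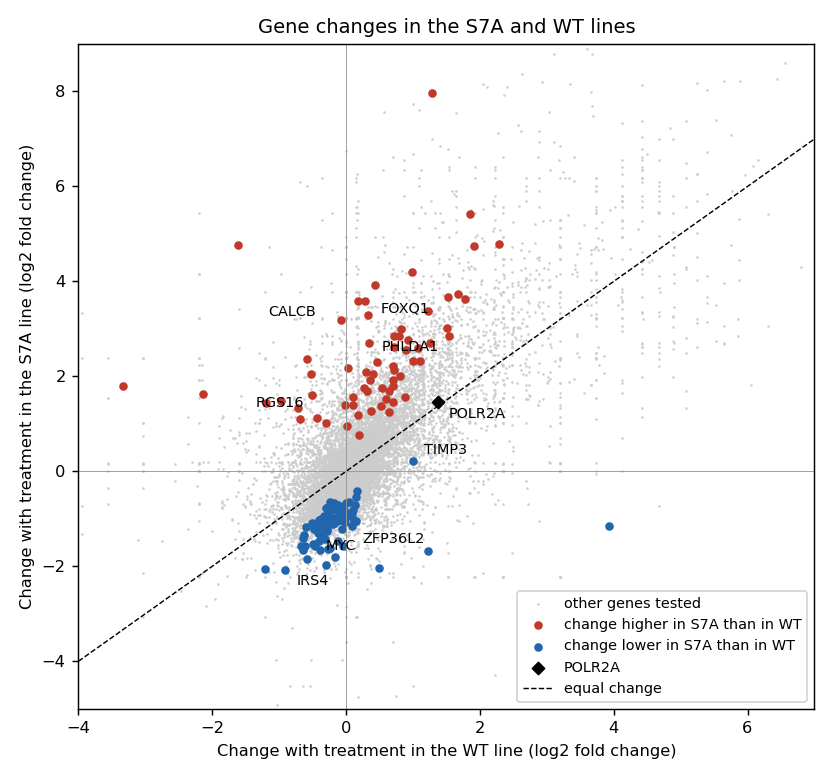
Change with treatment in the WT line (x axis) against that in the S7A line (y axis), both as log2 fold changes of treated over untreated libraries, 2 libraries per group. Each point is 1 of 19982 genes; red points are the 65 genes whose change was called higher in S7A and blue points the 99 called lower, the diamond is POLR2A, and the dashed line marks equal change. Most blue points lie at a WT change near 0 and an S7A change near -1; 9 genes outside the axes, none of them called, are not drawn.

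How many genes were called depended on the scaling and on single libraries. With DESeq2's size factors 81 genes (0.405%) were called higher and 54 (0.27%) lower, 0.676% in all. With scaling to 13 mitochondrial mRNAs the counts were 14 (0.0701%) and 27 (0.135%), 0.205% in all, and with the authors' own factors 69 (0.345%) and 4292 (21.5%), 21.8% in all. The authors' factors moved the median of all genes to -0.63, since total counts over the authors' factor in treated libraries came to 56.1% of untreated in S7A and to 84.3% in WT. In WT these totals overlapped, at 15472900 and 17919300 untreated and 11325800 and 16820700 treated. In S7A they did not, at 15418000 and 14755400 untreated and 9138320 and 7795660 treated. TMM scaling, used for the reported counts, does not show a change that most genes share. With a correction for GC content 792 (3.96%) were called higher and 1714 (8.58%) lower, 12.5% in all. Without 1 library the total was 19 (untreated WT replicate 1), 22 (untreated S7A replicate 1), 29 (untreated WT replicate 2), 55 (treated S7A replicate 2) 101 (untreated S7A replicate 2) or, for the other 3 libraries, 116 to 129. These fits applied the filter on low counts again and tested 21048 to 21077 genes. With the 19982 genes kept, an alternative chosen after seeing the data, the total was 20, 31, 37, 58 and 101 in the same order and 120 to 140 for the other 3, and the genes named below as called whichever library was left out were called in all 8 fits. In a fit of the 8 libraries alone 1 gene was called, CALCB. None of the 164 genes changed direction in any of these fits, which cover 10 other settings and 8 left-out libraries.

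**Figure D2:**
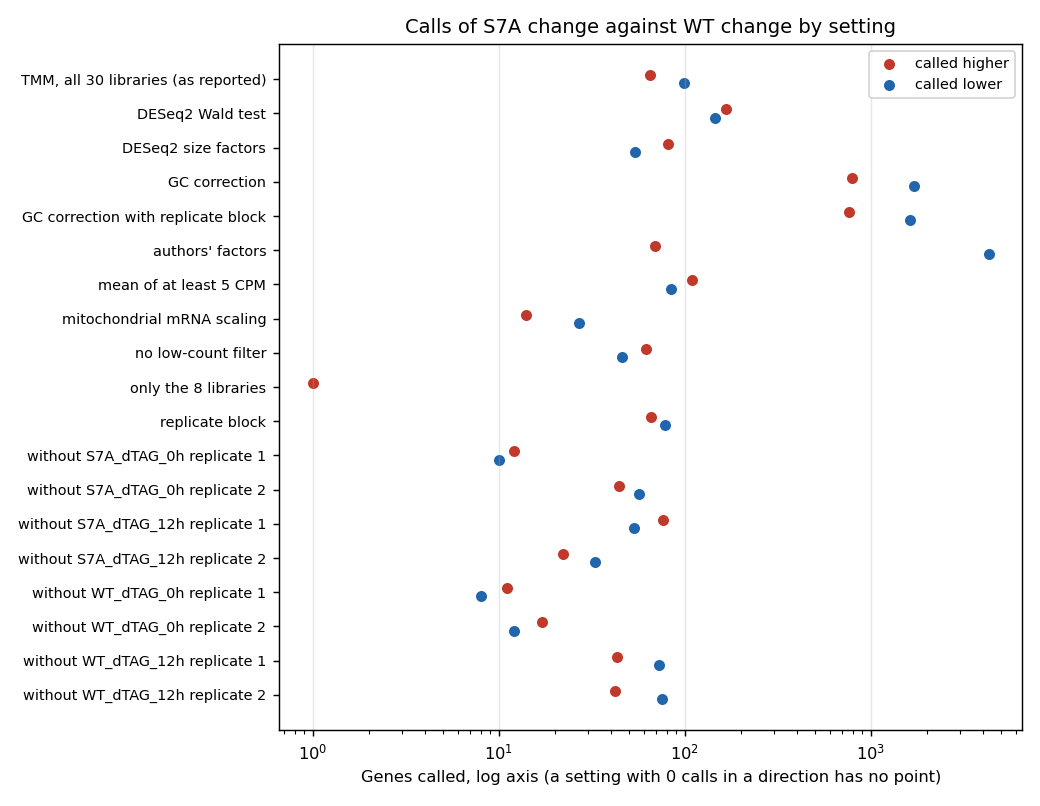
Number of genes whose change with treatment was called higher (red) or lower (blue) in S7A than in WT, on a log axis, under each way of processing. The reported fit, with TMM scaling over all 30 libraries, gives 65 and 99; the authors' factors give 69 and 4292, and the 8 libraries alone give 1 and 0.

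The genes called higher and lower were of different kinds. Of the 99 lower genes, 94 (94.95%) are annotated as protein-coding, against 74.4% of all genes tested, and their median level in the untreated libraries was 32.7 CPM, against 10.1 CPM for all genes. Of the 65 higher genes, 39 (60.0%) are protein-coding, and their median untreated level was 2.08 CPM. Of those of the 65 found in GENCODE 29, 16 (26.7%) have a single exon, against 11.6% of all genes tested and 7.14% of the lower genes. The median GC content of the transcripts was 50.4% for the higher genes, 46.8% for the lower and 48.9% for all. The median span on the genome was 13.98 kb, 35.4 kb and 24.7 kb in the same order. At low levels a difference has to be larger to be called, so these values were shaped by the test as well as by the genes.

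Among the higher genes, CALCB stood out by the size of the change and by the small spread between libraries. It encodes the beta form of calcitonin gene-related peptide, a neuropeptide, and lies on chromosome 11 (14904997 to 15082342, plus strand). It was at 19.6 and 20.3 CPM in untreated WT and at 17.9 and 19.9 in treated WT. In S7A it went from 11.6 and 11.3 CPM to 102.9 and 106.5. The 2 treated S7A libraries were thus the only high ones, and the treated and untreated WT libraries overlapped. The S7A change was 3.19 ± 0.15, the WT change -0.08 ± 0.14, and the difference 3.27 ± 0.20, a 9.62-fold ratio (edgeR adjusted p = 4.39e-09). CALCB was called under every scaling, filter and left-out library that was run, with a difference of 3.19 to 3.34 when 1 library was left out.

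FOXQ1, a forkhead transcription factor gene of 1 exon (chromosome 6, 1312440 to 1314748, plus strand), showed the same form at a lower level. Untreated WT libraries were at 1.26 and 1.11 CPM and treated ones at 0.912 and 2.00. Untreated S7A libraries were at 0.659 and 1.11 CPM and treated ones at 7.18 and 10.3. Again only the treated S7A libraries were high. The difference of changes was 2.97 ± 0.49 (edgeR adjusted p = 0.00609), and without untreated WT replicate 1 it was not called (edgeR adjusted p = 0.0765).

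RGS16, which encodes a regulator of G protein signalling (chromosome 1, 182598623 to 182604408, minus strand), rose in S7A and not in WT, where its values were lower after treatment without a call. It was at 18.7 and 20.7 CPM in untreated and 12.3 and 16.8 CPM in treated WT. In S7A it went from 15.6 and 17.6 to 31.4 and 41.1 CPM. The treated libraries of the lines did not overlap. The S7A change was 1.13 ± 0.16, and the difference from the WT change was 1.56 ± 0.23 (edgeR adjusted p = 0.00203), called whichever library was left out. With the authors' factors the difference was 0.93 (edgeR adjusted p = 0.0333). In the authors' deposited table the S7A change of RGS16 was 0.29 (DESeq2 adjusted p = 0.378) and the WT change -0.64 (DESeq2 adjusted p = 0.999). Its rise in S7A was thus smaller there and was not called. That table has another scaling and another test, and the part of each was not tested. In the degron line, where endogenous RPB1 is removed and not replaced, RGS16 fell by 2.31 on the log2 scale (edgeR adjusted p = 2.75e-09).

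The 250 bases before the start of FOXQ1 and of RGS16 annotated in RefSeq are shown because these genes rose in S7A and were not called as risen in WT or in the degron line, a choice made after their values were seen. CALCB has no entry in the promoter table used. They are from RefSeq, build GRCh38.p14, 5′ to 3′ on the strand of the gene, at chr6:1311848-1312097 (plus) and chr1:182604390-182604639 (minus). The RefSeq starts differ from those of the gene coordinates given above. The FOXQ1 window therefore does not adjoin the gene as given there, and the RGS16 window overlaps its gene. Capitals mark the motifs searched on both strands: CCAAT, which reads ATTGG on the other strand, GGGCGG, which reads CCGCCC, and TATAAA.
FOXQ1: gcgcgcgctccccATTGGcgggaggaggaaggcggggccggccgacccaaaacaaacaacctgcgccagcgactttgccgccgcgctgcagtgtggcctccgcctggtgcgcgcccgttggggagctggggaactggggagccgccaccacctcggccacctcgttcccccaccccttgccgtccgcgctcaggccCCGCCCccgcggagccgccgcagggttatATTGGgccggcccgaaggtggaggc
RGS16: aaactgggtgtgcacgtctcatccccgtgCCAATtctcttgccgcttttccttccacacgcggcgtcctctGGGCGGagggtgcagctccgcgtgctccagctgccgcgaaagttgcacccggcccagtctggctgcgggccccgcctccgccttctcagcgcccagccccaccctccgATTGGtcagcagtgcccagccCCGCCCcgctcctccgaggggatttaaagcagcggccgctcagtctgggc
Both windows hold 2 CCAAT motifs and 0 TATAAA motifs, and they hold 1 and 2 GGGCGG motifs and 29 and 22 CpG dinucleotides. Of 35 higher genes with an entry, 37.1% held CCAAT, 54.3% GGGCGG and 5.71% TATAAA. Among 77 lower genes the shares were 28.6%, 49.4% and 11.7%, and among 13203 tested genes with an entry they were 34.4%, 64.2% and 6.01%. A match of letters is a description of the window only.

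PHLDA1, a gene induced by ERK signalling, was at 2.45 and 2.85 CPM in untreated and 3.73 and 3.03 in treated WT. Its S7A libraries were at 1.78 and 0.760 CPM untreated and at 9.22 and 7.44 treated. The treated S7A libraries were the highest of the 8 and the untreated S7A libraries the lowest, so part of the difference of 2.35 ± 0.34 (edgeR adjusted p = 0.00158) lay in the untreated libraries, where PHLDA1 was 1.04 lower in S7A than in WT (edgeR adjusted p = 0.0183). ABCC2, which encodes the export pump MRP2, was at 4.46 and 5.42 CPM in untreated and 6.13 and 5.78 in treated WT. In S7A it went from 3.89 and 3.25 to 11.5 and 12.5 CPM. The difference was 1.47 ± 0.21 (edgeR adjusted p = 0.00151), and both genes were called whichever library was left out.

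ADAMTSL4, whose product is a secreted extracellular matrix protein, went from 3.89 and 4.14 to 25.02 and 32.59 CPM in S7A. In WT it was at 6.04 and 6.74 CPM untreated and at 7.54 and 13.2 treated. The treated S7A libraries exceeded every other one. The difference was 2.13 ± 0.35 (edgeR adjusted p = 0.00704). KRBA2 gave a difference of 1.83 ± 0.24 (edgeR adjusted p = 0.000968), with 20.3 and 17.1 CPM in treated S7A against 8.45 and 7.29 in treated WT. These genes too were called whichever library was left out.

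Several further higher genes were near the detection limit before treatment. IRF5, an interferon regulatory factor, was at 0.198 and 0.345 CPM in untreated and 4.61 and 5.62 in treated S7A, and its difference from WT was 3.21 ± 0.58. C9orf152, at 0.132 and 0.138 CPM in untreated S7A, reached 5.90 and 6.41 CPM, against 1.08 and 0.895 in treated WT, a difference of 3.56 ± 0.74. C1orf116 gave 2.50 ± 0.52 and NKPD1 2.14 ± 0.50. Their level is low enough that the size of the difference depended on a few counts. All were called by edgeR (adjusted p = 0.0120 for IRF5, 0.0277 for C9orf152, 0.0259 for C1orf116 and 0.0448 for NKPD1), and each call was lost without either untreated WT library and without untreated S7A replicate 1, among others (adjusted p of at most 0.308). CRACR2B, a calcium channel regulator, CCDC78 and GNAT2, the cone transducin alpha subunit, gave 2.06 ± 0.45, 2.04 ± 0.45 and 1.85 ± 0.39 and likewise lost their calls without either untreated WT library (edgeR adjusted p = 0.0328, 0.0366 and 0.0294, at most 0.192 without a library).

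CD14, a monocyte marker and co-receptor for lipopolysaccharide, was the called member of the 10 immune markers tested (2.06 ± 0.47; edgeR adjusted p = 0.0395, at most 0.489 and lost without any library but treated S7A replicate 1). It went from 0.593 and 0.898 to 8.62 and 11.4 CPM in S7A and from 0.755 and 0.417 to 1.82 and 2.00 CPM in WT. The summed level of the 15 immune markers went from 6.72 to 8.01 CPM in untreated to 29.9 to 38.5 CPM in treated S7A, and from 6.79 to 7.71 to 15.7 to 16.9 CPM in WT. PTPRC, which defines blood cells, was at 0 to 0.0791 CPM in the 8 libraries. The 9 endothelial markers summed to 1.85 to 2.62 CPM in untreated and 8.54 to 12.97 CPM in treated S7A, with 0 of 6 tested called and CDH5 at 0 to 0.0659 CPM. The part of such transcripts in the differences was not tested.

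The lower genes included those of transcription factors, signalling proteins and mRNA-binding proteins. MYC, which encodes a growth-promoting transcription factor with a short-lived mRNA, was at 259 and 255 CPM in untreated WT and at 166 and 205 in treated WT. In S7A it fell from 253 and 296 to 80.7 and 103 CPM. The treated S7A libraries were the lowest of the 8, and the untreated libraries of the lines overlapped. The difference was -1.11 ± 0.18 (edgeR adjusted p = 0.00705), and without untreated WT replicate 1 it just missed the threshold (edgeR adjusted p = 0.0502), while with the same genes tested it was called in all 8 fits (edgeR adjusted p of at most 0.0471).

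IRS4, the gene of an insulin receptor substrate (X chromosome, 108732482 to 108736409, minus strand, 1 exon), was at 1367 and 1454 CPM in untreated and 839 and 666 in treated WT. In S7A it went from 1135 and 1082 to 280 and 243 CPM. IRS4 fell in both lines, by 0.91 in WT and by 2.08 in S7A on the log2 scale, and the treated libraries did not overlap. The difference was -1.18 ± 0.16 (edgeR adjusted p = 0.00127), called whichever library was left out.

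TRAF3IP2, an adaptor of the interleukin 17 receptor, was not called as changed in WT: its libraries were at 13.6 and 14.2 CPM untreated and at 13.8 and 16.4 treated. In S7A it fell from 16.5 and 15.5 to 7.64 and 7.75 CPM. The difference was -1.17 ± 0.16 (edgeR adjusted p = 0.00139). ZFP90, a KRAB zinc finger gene, followed the same course, from 45.3 and 44.9 to 21.7 and 17.1 CPM in S7A, against 37.3 and 42.5 untreated and 41.3 and 35.6 treated in WT (difference -1.16 ± 0.18, edgeR adjusted p = 0.00339). For both genes the treated S7A libraries were the lowest of the 8, and the calls held whichever library was left out.

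ZFP36L2, an mRNA-binding protein that promotes decay of AU-rich transcripts, was at 54.1 and 56.5 CPM in untreated and 55.2 and 62.1 in treated WT. In S7A it fell from 67.5 and 87.0 to 26.4 and 42.7 CPM. The treated S7A libraries were again the lowest, with a wider spread between them. The difference was -1.25 ± 0.23 (edgeR adjusted p = 0.0120), lost without untreated S7A replicate 2 or without either untreated WT library (adjusted p of at most 0.0889). MED11, the gene of a Mediator head subunit, went from 13.64 and 12.98 to 3.86 and 3.56 CPM in S7A and from 12.4 and 12.2 to 8.12 and 8.26 CPM in WT, a difference of -1.26 ± 0.20 (edgeR adjusted p = 0.00582) that was called whichever library was left out.

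The largest negative differences among the named genes belonged to genes at 14.6 CPM or less in untreated S7A. MMAA, which acts in mitochondrial vitamin B12 metabolism, gave -1.67 ± 0.36. TMEM100, a transmembrane protein gene, gave -1.62 ± 0.31, and PANTR1, a long noncoding RNA gene, gave -1.54 ± 0.29. SLC8A1, the sodium-calcium exchanger, and FZD10, a Wnt receptor, gave -1.38 ± 0.26 and -1.37 ± 0.27. In these 5 genes the edgeR adjusted p was 0.0135 to 0.0315, the untreated S7A libraries were at 3.66 to 14.6 CPM and the treated ones at 0.712 to 4.83 CPM. Each lost its call without untreated S7A replicate 1 and without untreated WT replicate 1 (adjusted p of at most 0.207). FZD10 was 1.22 higher in untreated S7A than in untreated WT (edgeR adjusted p = 0.000119), and its treated libraries of the lines overlapped in level.

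TIMP3, which encodes an inhibitor of metalloproteinases, reached a negative difference in another way: it rose in WT and was not called as changed in S7A. Its WT libraries went from 43.5 and 43.7 to 83.0 and 92.1 CPM. The S7A libraries were at 51.1 and 54.0 CPM untreated and at 58.8 and 63.1 treated. In both lines the treated libraries lay above the untreated ones, by more in WT. The WT change was 1.01 ± 0.09 (edgeR adjusted p = 3.31e-07), the S7A change 0.21 ± 0.09 (edgeR adjusted p = 0.0549) and the difference -0.79 ± 0.12 (edgeR adjusted p = 0.00256), called whichever library was left out but not with mitochondrial scaling or with no filter on low counts. With the authors' factors the difference was -1.40 (edgeR adjusted p = 0.00301). In the authors' deposited table TIMP3 changed by -0.61 in S7A (DESeq2 adjusted p = 0.0214) and by 0.79 in WT (DESeq2 adjusted p = 0.999). The S7A line was thus called there and the WT line was not. That table differs from the fit used here in test as well as in scaling, and the part of each was not tested.

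**Figure D3:**
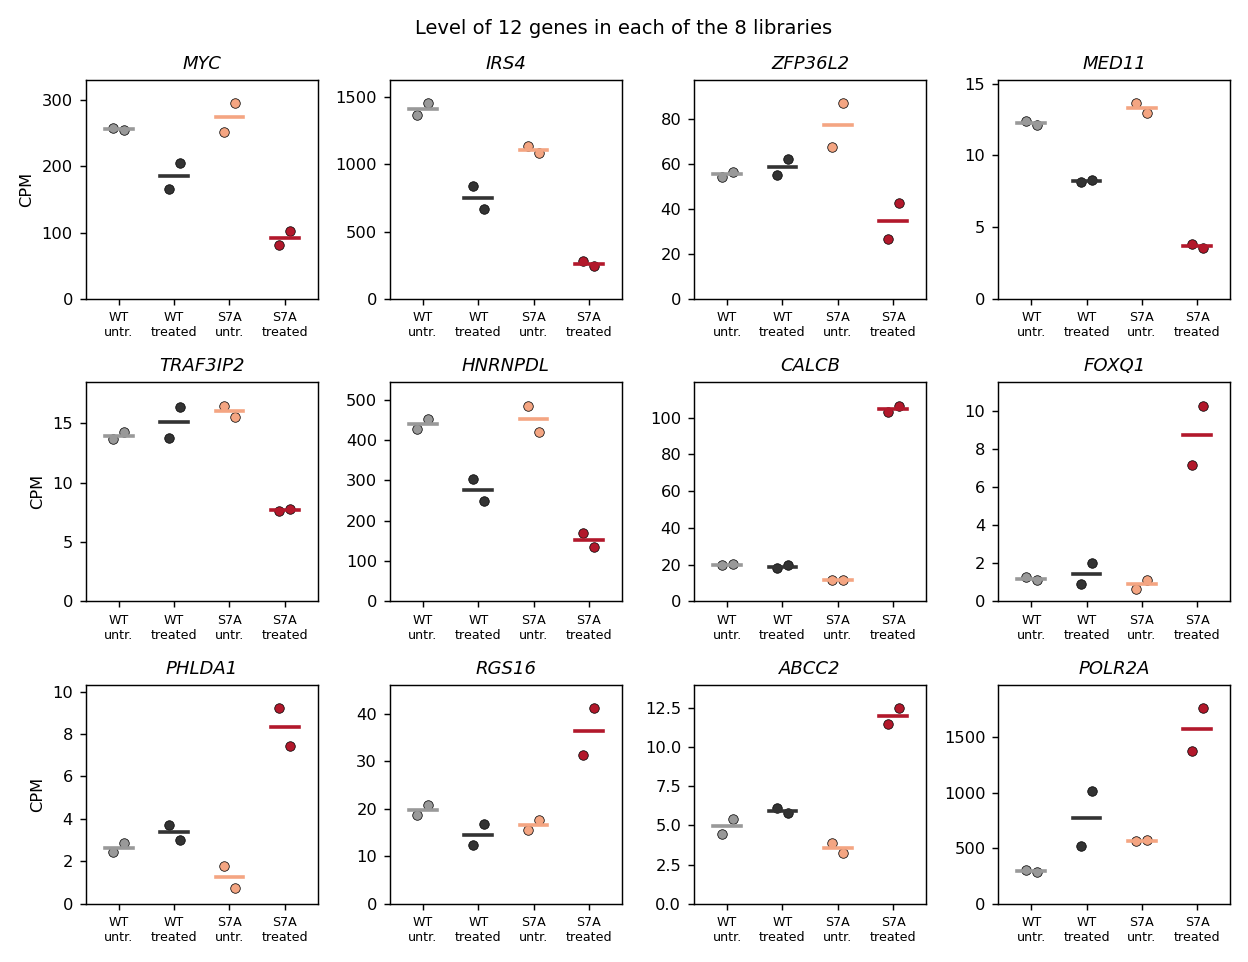
Level of 12 genes in CPM (y axis, from 0) in each of the 8 libraries; points are libraries and lines the means of 2. In CALCB, FOXQ1 and ABCC2 only the treated S7A libraries are high, in MYC, IRS4, MED11, TRAF3IP2 and ZFP36L2 they are the lowest, and POLR2A rises in both lines.

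The 45 gene lists were compared by the number of members called and by the median difference, beside 0.821% called and a median of -0.04 over all genes. Lists for the transcription machinery had 0 or 1 members called, and in lists of this size such counts cannot be told from 0.821%. Of 29 Mediator subunits 1 was called lower, MED11. Of 22 cleavage, polyadenylation and termination factors 1 was called lower, CSTF1 (-0.59 ± 0.14; edgeR adjusted p = 0.0457), a call lost whichever library was left out. Of 12 RNA polymerase II subunits 0 were called (median 0.01), of 30 general transcription factors and TFIID subunits 0 (median 0.00), of 30 pausing and elongation factors 0 and of 20 CTD phosphatases, readers and capping enzymes 0. With GC correction 1 of the last 20 was called higher and 6 lower, where 8.58% of all genes were lower. Among 17 CTD kinases and their cyclins CDK12, a serine 2 kinase, was the called member (-0.48 ± 0.11; edgeR adjusted p = 0.0376). It went from 167.5 and 169.4 to 98.6 and 101.7 CPM in S7A and from 154.7 and 154.3 to 132.6 and 123.6 in WT, so that it fell in both lines. Its call held without treated WT replicate 2 but was lost without any of the other 7 libraries in turn (adjusted p of at most 0.187). CDK7, the kinase known for serine 7, had a difference of -0.20 (edgeR adjusted p = 0.726).

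The Integrator complex, through which phosphorylated serine 7 is known to act at small nuclear RNA genes, had 0 of 26 genes called, the subunits of the small nuclear RNA activating complex included. Their median was -0.11, and they ranged from -0.83 for SNAPC2 (edgeR adjusted p = 0.237) to 0.30 for INTS1. INTS3 and INTS7 were at -0.55 and -0.58 (edgeR adjusted p = 0.102 and 0.111). With GC correction 4 of the 26 were called lower, where 8.58% of all genes were, and 0 higher. Small nuclear RNAs have no poly(A) tail, and of 22 such genes 1 passed the filter, RNVU1-7, at 0.01. The libraries thus hold almost no measurement of the transcripts for which serine 7 is best known.

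SR and hnRNP proteins bind pre-mRNA and set which exons are kept. Of 30 SR and hnRNP splicing factors 4 were called lower and 0 higher, 25 lay below 0 and the median was -0.25, against 54.1% of all genes below 0. HNRNPDL, a member of the hnRNP D family, went from 485 and 420 to 169 and 135 CPM in S7A and from 427 and 451 to 303 and 248 CPM in WT. Its difference was -0.90 ± 0.18 (edgeR adjusted p = 0.0189). HNRNPD, SRSF3 and SRSF8 gave -0.66 ± 0.11, -0.64 ± 0.14 and -0.64 ± 0.13 (edgeR adjusted p = 0.0101, 0.0288 and 0.0241). Each of the 4 lost its call without untreated S7A replicate 1, treated S7A replicate 2 or untreated WT replicate 1 (adjusted p of at most 0.240), and HNRNPD also with GC correction, under which 8 of the list were called lower. Over all genes 8.58% were called lower with that correction. SRSF1, SRSF6 and SRSF2 were at -0.46, -0.45 and -0.38 without a call, while HNRNPM was at 0.26.

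Lists of mRNA decay, DNA replication and mitosis had 2, 1 and 1 members called lower. Among 41 deadenylation, decapping and exosome genes these were ZFP36L2 and CNOT9, a CCR4-NOT subunit (-0.50 ± 0.11; edgeR adjusted p = 0.0366). Among 45 DNA replication genes it was GINS3 (-0.78 ± 0.17; edgeR adjusted p = 0.0366), and among 33 G2 and mitosis genes BUB3, a spindle checkpoint gene (-0.54 ± 0.12; edgeR adjusted p = 0.0328). Below 0 lay 28 of 41, 25 of 45 and 23 of 33 members, where 54.1% of all genes did and the DNA replication list was near that share, with medians of -0.17, -0.07 and -0.14. The calls of CNOT9, GINS3 and BUB3 were lost in 7 of the 8 fits that left out a library (adjusted p of at most 0.293).

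MYC was the called member of the 28 genes of the MYC network and its targets, whose median was -0.11. Its partner MAX was at -0.48 (edgeR adjusted p = 0.0810) and the targets LDHA, NPM1 and NCL at -0.27, -0.06 and 0.10, all without a call. Of the 28 genes 18 lay below 0, where 54.1% of all genes did. With GC correction 2 of the 28 were called higher and 11 lower, where 3.96% and 8.58% of all genes were. BMP pathway targets and inhibitors had the lowest median of the lists of 8 or more genes other than markers, -0.36, with 19 of 22 below 0 and 0 called. BMP2, a ligand, went from 118 and 126 to 23.51 and 29.98 CPM in S7A and from 146 and 137 to 45.3 and 56.0 in WT. It fell in both lines, and the difference was -0.71 ± 0.18 (edgeR adjusted p = 0.0585). ID3 and ID4, which the pathway induces, were at -0.77 and -0.56 (edgeR adjusted p = 0.122 and 0.0618). Of the 22 BMP genes 9 were called lower with GC correction, where 8.58% of all genes were.

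Of 30 integrated stress response genes 8 were called as risen and 3 as fallen with treatment in S7A, and 6 and 0 in WT. Of 26 heat shock and chaperone genes these counts were 6 and 1 in S7A and 1 and 2 in WT, where 34.9% of all genes were called in S7A and 4.93% in WT. ATF3, a stress-induced transcription factor, went from 20.1 and 18.9 to 48.9 and 63.1 CPM in S7A and from 29.6 and 27.2 to 42.6 and 42.9 CPM in WT. It rose in both, by 1.52 in S7A and 0.59 in WT, and differed by 0.93 ± 0.17 (edgeR adjusted p = 0.0120; at most 0.0970 without treated S7A replicate 2 or untreated WT replicate 1). ATF4, the transcription factor of the integrated stress response, differed by -0.63 ± 0.14 (edgeR adjusted p = 0.0376), lost without 6 of the 8 libraries in turn, both untreated WT libraries among them. The other 28 genes of this list of 30 had no call. HSPA6, a strictly inducible HSP70 gene, was at 0 and 0.276 CPM in untreated and 42.9 and 69.0 in treated S7A. In WT it was at 0.440 and 0.278 CPM untreated and 32.3 and 37.7 treated. HSPA6 rose in both lines, by a fitted 8.60 in S7A and 6.56 in WT, and the untreated values rest on 0 and 4 counts in S7A and 7 and 4 in WT, so the size of these changes is uncertain. The difference of 2.04 ± 0.83 did not pass the test (edgeR adjusted p = 0.261). HSPA6 has near-identical copies in the genome between which counting may split reads. HSPA8, the constitutive HSP70 gene, was the called member of the 26 heat shock and chaperone genes (-0.47 ± 0.09; edgeR adjusted p = 0.0135, at most 0.175 without untreated S7A replicate 1, treated S7A replicate 2 or either untreated WT library).

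Among ERK feedback genes PHLDA1 was higher and SPRY1, an inhibitor of receptor signalling, lower (-0.96 ± 0.17; edgeR adjusted p = 0.0101, lost without untreated S7A replicate 1 or untreated WT replicate 1). SPRY1 went from 17.3 and 18.4 to 5.59 and 6.33 CPM in S7A and from 19.56 and 21.04 to 14.6 and 11.9 CPM in WT. The other 18 of these 20 genes had no call, DUSP6, at -0.14, among them. Of 31 immediate early genes 1 was called, ATF3, which was higher as given above. The median of this list was -0.08, with 17 below 0, where 54.1% of all genes were. FOS, EGR1 and JUN were at 0.44, 0.06 and 0.22 without a call.

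Housekeeping lists had no calls. Of 76 cytosolic ribosomal protein genes 0 were called (median -0.10, with 62 below 0 against 54.1% of all genes), although 38 were called lower with the authors' factors, where 21.5% of all genes were. Of 46 nuclear-encoded respiratory chain genes 0 were called (median 0.00), and of 34 proteasome genes 0 (median -0.03). Replication-dependent histone genes, whose mRNAs normally lack a poly(A) tail, rose with treatment in both lines. Of 35, 25 were called as risen in S7A and 16 in WT, where 17.8% and 3.09% of all genes were. Their difference had a median of 0.26 with 0 called, which turned to -0.29 with the authors' factors, still above the median of -0.63 of all genes there.

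Noncoding genes supplied part of the higher calls. Of 364 divergent transcripts named DT 3 were called higher and 0 lower (PBX3-DT, MRPL20-DT and ISL1-DT), of 388 LINC genes 2 and 0 (LINC01588 and LINC01963), and of 710 antisense genes named AS 2 and 0 (SSBP3-AS1 and ZNF213-AS1). The medians were 0.19, 0.03 and 0.00, and with the authors' factors -0.37, -0.43 and -0.57. Those of all genes were -0.04 and -0.63, below the 3 lists in each setting. With GC correction 13, 12 and 18 were called higher and 10, 10 and 21 lower, where 3.96% of all genes were higher and 8.58% lower. With the authors' factors 1, 3 and 2 were higher and 37, 34 and 69 lower, where 0.345% and 21.5% of all genes were. The excess of higher over lower calls thus depended on the scaling. LINC01588 differed by 1.65 ± 0.30 (edgeR adjusted p = 0.0120), lost without untreated S7A replicate 1 or untreated WT replicate 1. Over all genes 0.325% were called higher. Whether reads were counted by strand is not given, so antisense and divergent transcripts cannot be told from their partners. ZNF-named zinc finger genes went the other way, with 0 of 451 called higher and 4 lower (0.495% of all genes were lower) and a median of -0.21. With GC correction 13 were higher and 73 lower, where 8.58% of all genes were lower.

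**Figure D4:**
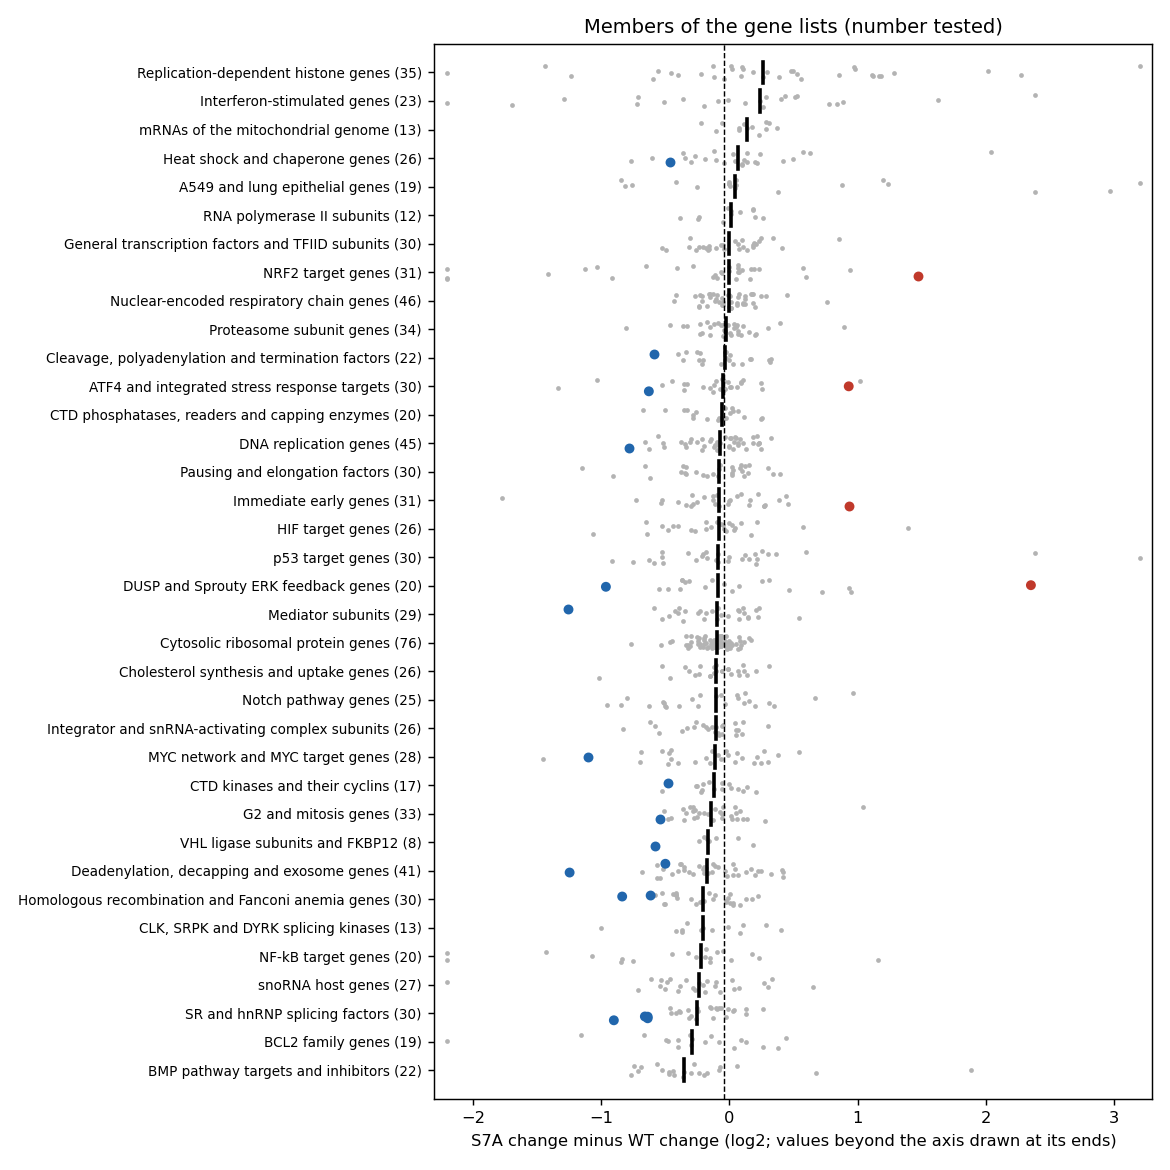
S7A change minus WT change (x axis, log2) for the tested members of the gene lists with at least 8 tested genes, other than markers of other cells and the lists of ZNF, LINC, DT and AS genes. Each point is a gene, blue and red points are called lower and higher, thick bars are list medians and the dashed line is the median of all genes; the BMP list has the lowest median, the histone list the highest, and values beyond the axis are drawn at its ends.

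The RPB1 degron line, whose 4 libraries are none of the 8, shows what followed when endogenous RPB1 was removed with 100 nM dTAGV-1 for 12 h and not replaced. It differs from the S7A and WT lines also in having received no doxycycline. Of the 65 genes called higher in S7A, 58 had risen there and 1 had fallen, where 23.1% of all genes had risen and 44.4% had been called either way. Of the 99 called lower, 94 had fallen and 1 had risen, where 21.4% of all genes had fallen. Across the 19982 genes the difference between S7A and WT correlated with the degron change at Pearson r = 0.47 and Spearman rho = 0.55, and across the 11442 genes whose mean reached 5 CPM at 0.70 and 0.71. Genes are not independent replicates, and the lines share the sequencing and the GC-related spread between libraries. With GC correction of the difference between S7A and WT, but not of the degron change, Pearson r was 0.47. The part of the GC-related spread in this correlation was not tested.

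The same relation held for genes chosen by the degron line alone. The 1642 genes that had fallen at least 2-fold there had a median change of -0.80 in S7A and -0.29 in WT, and a median difference of -0.50. Of these genes 74 were called lower and 1 higher, and 89.5% lay below 0. Over all genes 0.495% were called lower and 0.325% higher, and 54.1% lay below 0. The 2453 genes that had risen at least 2-fold had a median change of 1.88 in S7A and 0.98 in WT, and a median difference of 0.78, with 50 called higher and 0 lower. Under mitochondrial scaling these medians were -0.63 and 0.66, with DESeq2's size factors -0.45 and 0.84, and with the authors' factors -1.09 and 0.20, beside a median of all genes of -0.17, 0.01 and -0.63. MYC fell by 4.49 in the degron line, by 1.58 in S7A and by 0.47 in WT. IRS4 fell by 3.14, 2.08 and 0.91 in the same order.

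**Figure D5:**
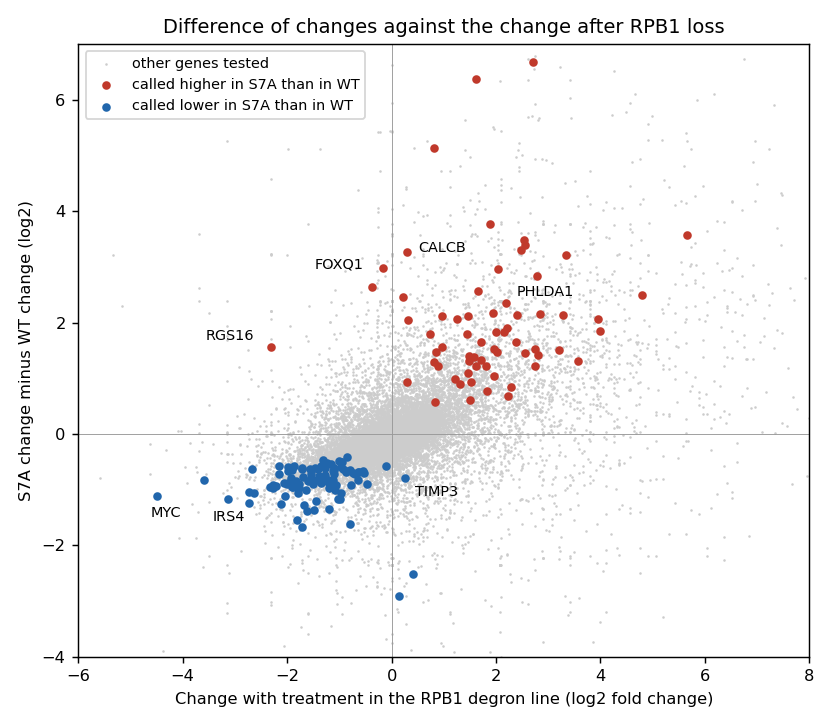
S7A change minus WT change (y axis, log2) against the change with treatment in the RPB1 degron line (x axis, log2 fold change), for 19982 genes. Genes called higher (red) lie mostly to the right and genes called lower (blue) mostly to the left; CALCB, FOXQ1 and RGS16 are higher in S7A at a degron change near or below 0. Of the genes, 39 lie outside the axes and are not drawn, 1 of them called.

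The 3 genes CALCB, FOXQ1 and RGS16, singled out after their values were seen, did not follow that pattern. CALCB was not called in the degron line (0.30; edgeR adjusted p = 0.0812), nor was FOXQ1 (-0.16; edgeR adjusted p = 0.769), and RGS16 fell there. Their change in S7A was also compared with that in the other CTD mutants, whose lines carry Y1F, S2A, T4V or S5A and received the same agents. Against the mean change of those 4 lines the S7A change was called different for 426 genes, 2.13% of those tested, 214 higher and 212 lower (1.07% and 1.06%). With mitochondrial scaling these counts were 329 and 24, and 16 and 24 under the factors of the authors. This comparison shares the S7A libraries with the one above, so its values are set side by side and not counted as further evidence. CALCB was 3.44 ± 0.16 higher than the mean of the 4 (edgeR adjusted p = 1.84e-11), and its change was -0.52 in Y1F, -0.12 in S2A, 0.08 in T4V and -0.46 in S5A. FOXQ1 was 3.12 ± 0.36 higher (edgeR adjusted p = 6.48e-05), with 0.87, -0.25, -0.05 and 0.13 in the same lines. RGS16 was 2.03 ± 0.18 higher (edgeR adjusted p = 2.16e-06), with -1.11, 0.31, -0.92 and -1.89. In these 3 genes the S7A line thus had the highest change of the 5 mutant lines.

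HSPA6 was 5.49 ± 0.64 higher in S7A than in the mean of the other mutants (edgeR adjusted p = 6.48e-05), although its rise in WT was large too, and this value rests on the same few untreated counts. MYC and IRS4, lower in S7A than in WT, were 1.01 ± 0.15 and 1.03 ± 0.13 higher than in the mean of the other mutants (edgeR adjusted p = 0.000938 and 0.000147). The change of MYC was -3.72 in Y1F, -0.83 in S2A, -1.60 in T4V and -4.19 in S5A, and that of IRS4 was -3.64, -2.28, -2.41 and -4.12. S7A thus lay between WT and the mean of the others for these genes. TIMP3 was lower in S7A than in WT and 0.58 ± 0.10 lower than the mean of the others (edgeR adjusted p = 0.00303), where it changed by 1.26 in Y1F, 1.29 in S2A, 0.50 in T4V and 0.12 in S5A. TCF7L2, a Wnt pathway transcription factor, and RHOU, a small GTPase gene, were lower than in both. Their differences were -0.68 ± 0.14 and -0.83 ± 0.19 from WT and -0.53 ± 0.11 and -0.66 ± 0.16 from the others (edgeR adjusted p = 0.0186 and 0.0353). These calls against WT (edgeR adjusted p = 0.0289 and 0.0430) were lost whichever of the 8 libraries was left out. The count of 426 was 46 without treated S7A replicate 2, 48 without untreated S7A replicate 1, 142 without untreated S7A replicate 2 and 1594 without treated S7A replicate 1. It was 261 without either untreated WT library, which enters only through the filter on low counts, the scaling and the estimate of spread, and 285 with the same genes tested.

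The lines also differed before any treatment. The comparison of changes takes the untreated level of each line as its reference, so a difference between the untreated libraries enters it. Untreated S7A and untreated WT differed in 1566 genes, 7.84% of those tested (771 higher in S7A, 3.86%, and 795 lower, 3.98%), and the treated libraries in 5092, 25.5% (2464 higher, 12.3%, and 2628 lower, 13.2%; 1542 and 2583 with mitochondrial scaling). The untreated count was 605 to 898 when any of the 4 untreated libraries was left out, and the treated count 2790 without treated S7A replicate 2 and 3340 without treated WT replicate 1. BEX1 and NAP1L3, both on the X chromosome, were at 9.22 and 9.95 and at 6.33 and 6.08 CPM in untreated S7A, against at most 0.503 CPM in untreated WT. ZNF521, a zinc finger gene on chromosome 18, was at 9.29 and 9.81 CPM in untreated S7A against 38.2 and 36.5 in WT. All 3 kept this difference after treatment. ZNF521 also fell further in S7A, to 5.29 and 4.91 CPM, a difference of changes of -0.83 ± 0.15 (edgeR adjusted p = 0.0120; at most 0.0805 without untreated S7A replicate 1, treated S7A replicate 2 or either untreated WT library). Before treatment 24.4% of the chromosome 3 genes tested, 23.3% of those of chromosome 18 and 23.1% of those of chromosome 11, on which CALCB lies, were called, against 7.84% of all genes. In the comparison of changes 0.746%, 0.707% and 0.987% were called, against 0.821% of all genes.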

How the data were processed

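Poly(A) RNA was sequenced in 30 libraries as paired reads of 150 bases, and the 8 libraries compared here are 2 per group. The authors deposited raw counts per gene, and, per the submitters' processing notes, the tools were Trim Galore 0.6.2, STAR 2.7.3a, featureCounts 2.0.1 and DESeq2 1.24.0 with the builds hg38 and dm6. The strand setting, the annotation release and the treatment of multi-mapped reads are not stated by any source used here. The authors' deposited result tables also hold base means, a normalized signal from which the authors' scaling factors were recovered, log2 fold changes, and p-values with adjusted p-values. The TPM values that the authors deposited beside the counts were not used. The labels mention 10% S2 fly cells, a spike-in, but the tables used hold no fly genes, so no spike-in scaling was computed.

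All 30 libraries were fitted together with 1 term per group (edgeR 4.0.16, limma 3.58.1, R 4.3.3), after filterByExpr (minimum count 10, minimum total 15) and TMM scaling, with quasi-likelihood tests and Benjamini-Hochberg adjustment over 19982 genes at 0.05. Residual degrees of freedom were 15. CPM values are counts divided by the TMM-scaled library total, and ± is a standard error, the absolute log2 difference divided by the root of the F value. Alternatives were DESeq2 1.42.0, its size factors, mitochondrial mRNA scaling, the authors' factors, GC correction with GENCODE 29 transcripts (values for 19035 genes, 95.3%), other filters, a replicate block, the 8 libraries alone, and each of the 8 left out in turn, with the filter applied again or, chosen after seeing the data, with the same genes tested. Summaries and plots were made with pandas 2.3.3 and matplotlib 3.10.9 in Python 3.11.15.

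Members and gene lists were chosen with earlier results of these data known. Named were POLR2A and the 15 genes each way with the largest called difference among genes whose mean reached 5 CPM in a group and with replicate changes of the lines that did not overlap (log2 CPM, prior count 2). To these were added 5 genes each way in the other comparisons and up to 4 members of each of 45 lists, called ones first. Other genes are given as list members or as chosen after their values were seen. The fit was tested on simulated counts for the S7A and WT contrast, where 62.7% of genes changed by 1 on the log2 scale, 100% of those changed by 2 and 7.58% of those changed by 0.585 were called, with 7 false calls among 18318 genes. The changed genes were drawn from those with a mean of at least 5 CPM. Counts were drawn for each gene on its own, without the GC-related spread between libraries seen in the data. These shares and false calls therefore hold for such counts and are not estimates for the comparison itself. Replicates of a group differed by more than sampling noise (chi-square per degree of freedom 2.2 to 22.8 in the 4 groups), so none was counted as a repeat deposit. Values of 1 further named gene are not reported here.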

Additional observations from a re-analysis of the deposited data

Results flagged for a closer look

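Each reported named gene whose change with treatment differed between the S7A and WT lines in edgeR's test of the difference itself is given here with that difference (S7A change minus WT change, log2). Among those higher in S7A it was 3.56 for C9orf152, 3.27 for CALCB, 3.21 for IRF5, 2.97 for FOXQ1, 2.50 for C1orf116, 2.35 for PHLDA1, 2.14 for NKPD1 and 2.13 for ADAMTSL4. It was also 2.06 for CRACR2B, 2.06 for CD14, 2.04 for CCDC78, 1.85 for GNAT2, 1.83 for KRBA2, 1.82 for SSBP3-AS1, 1.65 for LINC01588 and 1.56 for RGS16. Further values were 0.93 for ATF3, 1.47 for ABCC2, 0.85 for LINC01963, 2.96 for PBX3-DT, 1.31 for MRPL20-DT, 1.21 for ISL1-DT and 0.90 for ZNF213-AS1. 

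Among those lower in S7A the difference was -1.67 for MMAA, -1.62 for TMEM100, -1.54 for PANTR1, -1.38 for SLC8A1, -1.37 for FZD10, -1.35 for ZNF879, -1.27 for ZNF239 and -1.26 for MED11. It was also -1.25 for ZFP36L2, -1.20 for CALHM5, -1.18 for IRS4, -1.17 for TRAF3IP2, -1.16 for ZFP90, -1.11 for GDF7, -1.11 for MYC and -0.83 for ZNF521. Further values were -1.05 for KTI12, -0.83 for RHOU, -0.79 for TIMP3, -0.68 for TCF7L2, -0.67 for DHX32, -0.48 for CDK12, -0.59 for CSTF1 and -0.90 for HNRNPDL. Others were -0.66 for HNRNPD, -0.64 for SRSF3, -0.64 for SRSF8, -0.50 for CNOT9, -0.96 for SPRY1, -0.63 for ATF4, -0.47 for HSPA8 and -0.84 for RAD51D. Other values were -0.78 for GINS3, -0.54 for BUB3, -0.58 for UBE2R2 and -0.68 for ZNF589. CALCB alone was called under every setting and left-out library that was run; 11 of 60 named calls were kept without untreated WT replicate 1 and 15 of 60 without untreated S7A replicate 1. No explanation was tested.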

How the results depend on the processing

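The comparison of the S7A with the WT change, 164 genes as reported, gave 312 genes with DESeq2's Wald test, 2506 with GC correction, 2385 with GC correction and the replicate block, 4361 with the authors' factors, 41 with mitochondrial mRNA scaling, 108 with no filter on low counts, 1 in the 8 libraries alone, and 19 to 129 without 1 library. The treated comparison (5092) gave 8029 with GC correction, 7951 with GC correction and the replicate block, 1931 in the 8 libraries alone and 2790 to 5186 without 1 library. The untreated comparison (1566) gave 4583, 4488, 171 and 605 to 1757 under the same settings and 856 with mitochondrial scaling. Against the mean of the other mutants (426) the count was 888 with DESeq2's Wald test, 2431 with GC correction, 2372 with GC correction and the replicate block, 40 with the authors' factors, 659 at 5 CPM or more, 1012 with no filter and 46 to 1594 without 1 library. The cause was not tested, except that the 8 libraries alone leave fewer samples for the spread. The authors' factors were not used for the treated and untreated comparisons. Leaving out a library with the same genes tested, chosen after seeing the data, gave 20 to 140, 2816 to 5235, 641 to 1779 and 44 to 1667 in the order of these 4 comparisons. No called gene changed direction under any setting. Beside 0 calls in a list stand 2676 genes at an unadjusted p under 0.05 over all genes.

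Replicate numbers did not pair all groups. The correlation of deviations of same-numbered libraries was 0.818, 0.616 and 0.471 among treated WT, treated S7A and untreated S7A, and -0.252, -0.436 and -0.462 where untreated WT was one of the pair. The replicate block gave 144 calls, 136 of them among the 164; among named genes it lost ZNF879, KTI12 and CSTF1 (edgeR adjusted p = 0.0513, 0.0521 and 0.0569) and 1 gene not reported here. The difference between replicates of a group followed GC content (Spearman rho -0.681 in treated S7A, -0.662 in treated WT, -0.428 in untreated S7A and 0.298 in untreated WT, across genes), and the difference of changes itself had a rho of 0.144 with GC content.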

Other observations

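Before treatment the S7A and WT lines differed along long stretches of chromosomes. On chromosome 3, 258 genes were higher and 4 lower in untreated S7A of 1072 tested, with a median of 0.34 (log2), and on chromosome 11, 5 were higher and 229 lower of 1013, with a median of -0.37 (edgeR calls). The stretch of chromosome 3 did not reach its end: between 160 and 180 Mb 3 of 36 genes at 5 CPM or more were higher, and between 180 and 200 Mb 4 of 79 were higher and 2 lower. In the 2 untreated S7A libraries the median level of chromosome 11 genes lay at -0.30 and -0.30 from the mean of 7 untreated lines, while the other 12 untreated libraries lay between -0.05 and 0.10. On chromosome 3 S7A did not stand apart in this way. Its libraries lay at 0.190 and 0.141, S2A at 0.165 in both and S5A at 0.142 and 0.125. WT lay at -0.204 and -0.183 and Y1F at -0.275 and -0.215, with T4V and the degron line in between. On chromosome 18 the difference sat between 20 and 40 Mb, where 44 of 50 genes at 5 CPM or more were lower in S7A, with a median of -1.02. These windows were chosen after the values were seen. In the comparison of changes the medians of these 3 chromosomes were -0.06, -0.02 and -0.07. A difference in DNA copy number between the lines was not tested.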
